A study of Mus musculus with 6 samples.

Results

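The 10 genes described here encode antiviral effectors of the interferon response: Ifit1, Ifit2, Ifit3, Mx1, Bst2, Rtp4, Xaf1, Rsad2, Sp100 and Phf11d. They were taken by name from the 19938 genes that the array annotation names on their own, and each was represented by 1 transcript cluster, the set of probes summarised into 1 value. They were chosen with their difference between the genotypes known, so that difference is given for each of them as a description, without a test. RNA came from mouse embryonic fibroblasts (MEFs), which are connective tissue cells cultured from whole embryos, and 3 Rb1+/+ cultures were set against 3 Rb1L/L cultures with 1 array each. All cultures were started from E13.5 embryos, grown to passage 4 in the same medium without an added virus or interferon in the labels, and harvested while they divided. Rb1 encodes the retinoblastoma protein pRb, and the L allele is known to disable the pocket surface that recognises LXCXE motif proteins; every cell of an Rb1L/L embryo carries it. The mouse strain is not given in the labels, and nothing there says whether same-numbered cultures came from littermates.

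Type I interferons bind a receptor at the cell surface, whose kinases Jak1 and Tyk2 activate Stat2. A complex that holds Stat2 and Irf9 then enters the nucleus and binds the interferon-stimulated response element (ISRE) in the promoters of many genes, among them the effectors studied here. Fibroblasts respond to interferon and can also produce it, and most of these genes are kept low until the pathway is engaged.

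Among the 10 genes, 7 stood clearly higher in every Rb1L/L culture than in any Rb1+/+ culture: Rtp4, Ifit1, Bst2, Xaf1, Sp100, Phf11d and Ifit3. In the means the differences ran from 1.88 (3.68-fold) for Ifit3 to 3.57 (11.9-fold) for Rtp4 on the log2 scale. The other 3 were Ifit2, Mx1 and Rsad2, whose means differed by 0.23 or less on the log2 scale. The groups overlapped for Ifit2 and Rsad2. Values are log2 array values, and genes entered the test if they averaged above 5.081 across the 6 arrays, a floor set from 1194 odorant and pheromone receptor genes that fibroblasts are not known to use. Mx1, with a mean of 4.10, was under this floor and Rsad2, with 5.50, was just above it, so 9 of the 10 genes were tested. Values of different genes are not compared as levels, because each probe set has its own brightness.

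The cultures were checked before the genes were compared. The 10 fibroblast markers that were looked up, collagens and Pdgfra among them, were all above the floor. Of these, Col3a1 (-0.33, limma adjusted p = 0.0112) and Lum (-0.39, adjusted p = 0.0347) fell in Rb1L/L, Lum losing its call without Rb1+/+ replicates 2 or 3 or Rb1L/L replicates 1 or 2. With the replicate block Dcn (-0.31) was called lower too (adjusted p = 0.0346, against 0.113 without it). Rb1 itself differed by 0.11 on the log2 scale (SE 0.10), and because the altered allele is still transcribed this does not check the genotype labels. By Xist and Y-linked genes, the cultures numbered 1 of both genotypes were of male type and the other 4 of female type. Same-numbered cultures deviated together from their group means, with correlations of 0.30, 0.24 and 0.30 over all tested genes, so differences within each number are given as well.

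Promoter sequences of the genes are shown first, because the known route to these genes runs through the ISRE. RefSeq promoter windows (GRCm38.p6, 250 bases before to 50 bases after an annotated start) were at hand for 8 of the 10 genes; Mx1 and Rtp4 are named only. They were searched on both strands for the letters GAAANNGAAA, the core of the ISRE. These letters occurred in 3.44% of all 32851 windows of the same length, in 3.41% of the tested genes with a window and in 5.68% of those called higher in Rb1L/L. Of the 8 genes, 4 held the core: Ifit1, Ifit3, Bst2 and Rsad2. The last 170 bases before the annotated start of these 4 genes and of Ifit2 are given 5′ to 3′ on the strand of the gene, with the ISRE core in capitals. They set Ifit1, Ifit3 and Bst2, which were high in Rb1L/L cultures, beside Rsad2 and Ifit2, which were not. Xaf1, Sp100 and Phf11d were also high, but their windows held no core and are not printed.
Ifit1: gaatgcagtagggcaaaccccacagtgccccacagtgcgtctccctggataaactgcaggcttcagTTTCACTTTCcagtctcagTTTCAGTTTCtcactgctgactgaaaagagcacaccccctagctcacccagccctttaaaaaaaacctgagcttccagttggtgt
Ifit3: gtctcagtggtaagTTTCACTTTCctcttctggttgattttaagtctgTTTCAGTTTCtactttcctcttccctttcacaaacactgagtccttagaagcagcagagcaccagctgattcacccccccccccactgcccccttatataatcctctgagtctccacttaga
Bst2: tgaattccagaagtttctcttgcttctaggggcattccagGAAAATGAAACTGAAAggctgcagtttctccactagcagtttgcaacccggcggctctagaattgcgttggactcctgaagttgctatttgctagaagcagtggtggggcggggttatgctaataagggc
Rsad2: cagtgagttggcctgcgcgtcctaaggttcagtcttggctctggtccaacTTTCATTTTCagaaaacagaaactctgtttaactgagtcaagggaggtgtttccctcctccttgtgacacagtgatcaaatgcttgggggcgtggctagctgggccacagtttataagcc
Ifit2: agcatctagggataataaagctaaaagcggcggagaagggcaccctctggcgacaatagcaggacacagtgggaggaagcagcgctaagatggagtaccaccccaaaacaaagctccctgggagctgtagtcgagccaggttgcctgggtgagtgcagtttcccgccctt

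The stretches lie at chr19:34640719-34640888 (plus strand) for Ifit1, chr19:34583359-34583528 (plus) for Ifit3, chr8:71537473-71537642 (minus) for Bst2, chr12:26456453-26456622 (minus) for Rsad2 and chr19:34550524-34550693 (plus) for Ifit2. Ifit1 and Ifit3 each carried the same 2 sites on the opposite strand, TTTCACTTTC and TTTCAGTTTC. In Ifit1 they began 104 and 85 bases before the start, and in Ifit3 156 and 122 bases before it. Bst2 held 2 overlapping copies, beginning 130 and 124 bases before the start. Rsad2 held 1 copy, beginning 120 bases before the start, although it was not among the genes that stood higher. Neither of the 2 windows of Ifit2 held the letters, nor did those of Xaf1, Sp100 and Phf11d, which says only that these letters are not in those windows.

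The interferon-gamma-activated element GAS, searched as TTCNNNGAA, was found in Bst2, where it overlaps the ISRE core, and in Ifit2, against 8.30% of all windows. An E2F site, the kind through which pRb acts on S phase genes, was searched as TTTCCCGC and TTTGGCGC. Among the 8 genes it was found in Ifit2 alone, as TTTCCCGC beginning 12 bases before the start, against 1.07% of all windows, 2.12% of tested genes with a window and 4.4% of those called higher. For TTTGGCGC the shares were 0.514%, 0.985% and 3.01%, and none of the 8 genes held it. These matches describe the letters and were not tested for use in the cells.

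The Ifit proteins are made of tetratricopeptide repeats and bind RNA. Ifit1 recognises RNA whose 5′ end lacks the methylation of host messengers. Its log2 values were 5.33, 6.07 and 6.64 in the Rb1+/+ cultures and 8.52, 9.70 and 9.54 in the Rb1L/L cultures. The lowest Rb1L/L culture thus lay 1.88 above the highest Rb1+/+ culture. The means, 6.01 ± 0.66 and 9.26 ± 0.64 (SD, n = 3 each), differed by 3.24 ± 0.37 (moderated SE), which is 9.47-fold.

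Ifit3 is known to bind Ifit1 and stabilise it. Its log2 values were 6.66, 6.62 and 7.27 in Rb1+/+ and 8.02, 9.02 and 9.15 in Rb1L/L. The groups were separated by 0.75, less than for any other of the 7 genes. The difference of the means was 1.88 ± 0.29 (SE), or 3.68-fold.

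Ifit2, the third RNA-binding relative, measured 7.47, 7.29 and 7.61 in Rb1+/+ and 7.69, 7.60 and 7.79 in Rb1L/L. The highest Rb1+/+ culture lay 0.01 above the lowest Rb1L/L culture. The means differed by 0.23 ± 0.09 (SE), or 1.18-fold. Within numbers the difference was 0.21, 0.31 and 0.18, so it had the same sign in all 3 pairs. Ifit1, Ifit2 and Ifit3 thus differed from each other in the size of the change although they are neighbours in the genome.

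**Figure D1:**
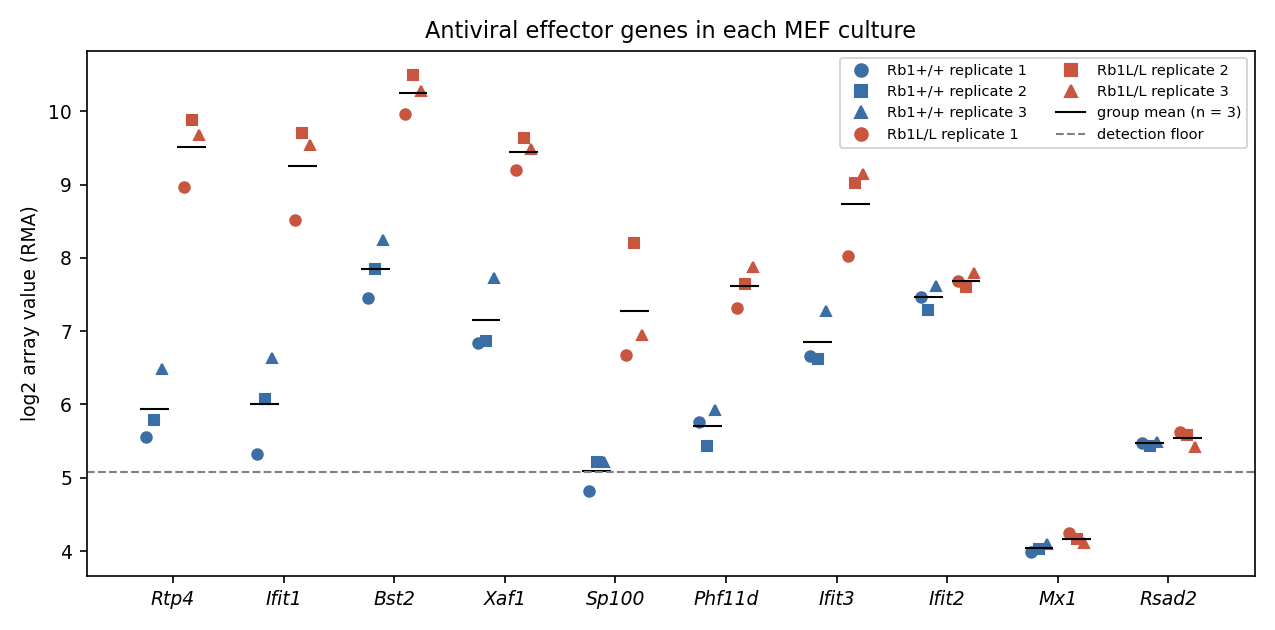
Each point is the log2 array value (y axis) of 1 culture for the gene on the x axis, blue for Rb1+/+ and red for Rb1L/L, with the replicate number as the marker shape, short black lines for the means of 3 cultures and a dashed line for the detection floor at 5.081. The red points lie above the blue ones for the 7 genes on the left, Ifit2 and Rsad2 overlap, and Mx1 lies under the floor.

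Bst2 encodes tetherin, a membrane protein that holds budding virus particles at the cell surface. Its log2 values were 7.45, 7.85 and 8.25 in Rb1+/+ and 9.96, 10.50 and 10.28 in Rb1L/L. The groups were 1.71 apart at their nearest points. The difference of the means was 2.40 ± 0.20 (SE), or 5.28-fold.

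Rtp4 encodes a chaperone that brings receptors to the cell surface and is known to restrict some viruses. It measured 5.55, 5.79 and 6.48 in Rb1+/+ and 8.97, 9.88 and 9.67 in Rb1L/L. The gap between the groups, 2.50, was the widest among the 10 genes. The means, 5.94 ± 0.48 and 9.51 ± 0.47 (SD, n = 3 each), differed by 3.57 ± 0.28 (SE), or 11.9-fold.

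Rsad2 encodes viperin, an enzyme that makes a chain-terminating nucleotide, and is among the genes most sharply induced by interferon in many cells. It measured 5.47, 5.44 and 5.49 in Rb1+/+ and 5.62, 5.58 and 5.42 in Rb1L/L. The groups overlapped, and the sign differed between numbers: the difference was 0.15 and 0.14 in the cultures numbered 1 and 2 and -0.07 in those numbered 3. The means differed by 0.07 ± 0.07 (SE).

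Mx1 encodes a GTPase that blocks influenza virus in the nucleus, and many laboratory strains are known to carry a defective allele. The reference annotation of the C57BL/6J strain lists it as a transcribed pseudogene. Its log2 values were 3.99, 4.03 and 4.09 in Rb1+/+ and 4.24, 4.16 and 4.11 in Rb1L/L, all under the floor. The means, 4.04 ± 0.05 and 4.17 ± 0.06 (SD, n = 3 each), are therefore not read as a level or a fold.

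Xaf1 encodes a partner of the caspase inhibitor XIAP and is known to favour cell death. It measured 6.84, 6.87 and 7.73 in Rb1+/+ and 9.20, 9.63 and 9.48 in Rb1L/L. Rb1+/+ replicate 3 stood apart from the other two Rb1+/+ cultures but remained 1.47 under the lowest Rb1L/L culture. The difference of the means was 2.29 ± 0.23 (SE), or 4.89-fold.

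Sp100 is a constituent of PML nuclear bodies, which silence the genomes of incoming DNA viruses. Its values were 4.82, 5.22 and 5.22 in Rb1+/+, around the floor, and 6.67, 8.20 and 6.95 in Rb1L/L. Rb1L/L replicate 2 was the highest by a wide margin, and the SD of 0.81 in Rb1L/L was the largest of the 10 genes. The difference of the means was 2.18 ± 0.34 (SE), and it was 1.72 without Rb1L/L replicate 2. Because the Rb1+/+ mean of 5.09 lay at the floor, with Rb1+/+ replicate 1 under it at 4.82, no fold is given. Sp100 has near-identical copies in the mouse genome, and the array annotation lists a further cluster that Sp100 shares with 4 other symbols, so its signal may include copies.

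Phf11d encodes a PHD finger protein and lies on chromosome 14, as Rb1 does. It measured 5.76, 5.43 and 5.93 in Rb1+/+ and 7.32, 7.65 and 7.87 in Rb1L/L, with a gap of 1.39 between the groups. The difference of the means was 1.91 ± 0.16 (SE), or 3.76-fold. Whether a linked variant near the targeted allele takes part in this difference was not tested.

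Over the 9 tested genes of the 10 the median difference was 2.18 on the log2 scale, against -0.02 over all tested genes. With Mx1, which was under the floor, the median of the 10 was 2.04. By limma, with p-values adjusted over all tested genes, 7.10% of 15462 genes passed the threshold of 0.05 as higher in Rb1L/L and 5.08% as lower. Among the 10, 7 were called higher and none lower; since they were chosen with this contrast known, nothing is read from that count. With the replicate number as a block the count was 8, with Ifit2 added, beside 7.99% of all tested genes called higher and 6.45% called lower in that fit. In 16.2% of tested genes every Rb1L/L value lay above every Rb1+/+ value. Of the 9 tested genes, 7 did so. In all, 9 tested genes on the array had a difference above 2 on the log2 scale, which is 0.0582% of those tested. Rtp4, Ifit1, Bst2, Xaf1 and Sp100 were 5 of them, Sp100 against an Rb1+/+ group at the floor.

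**Figure D2:**
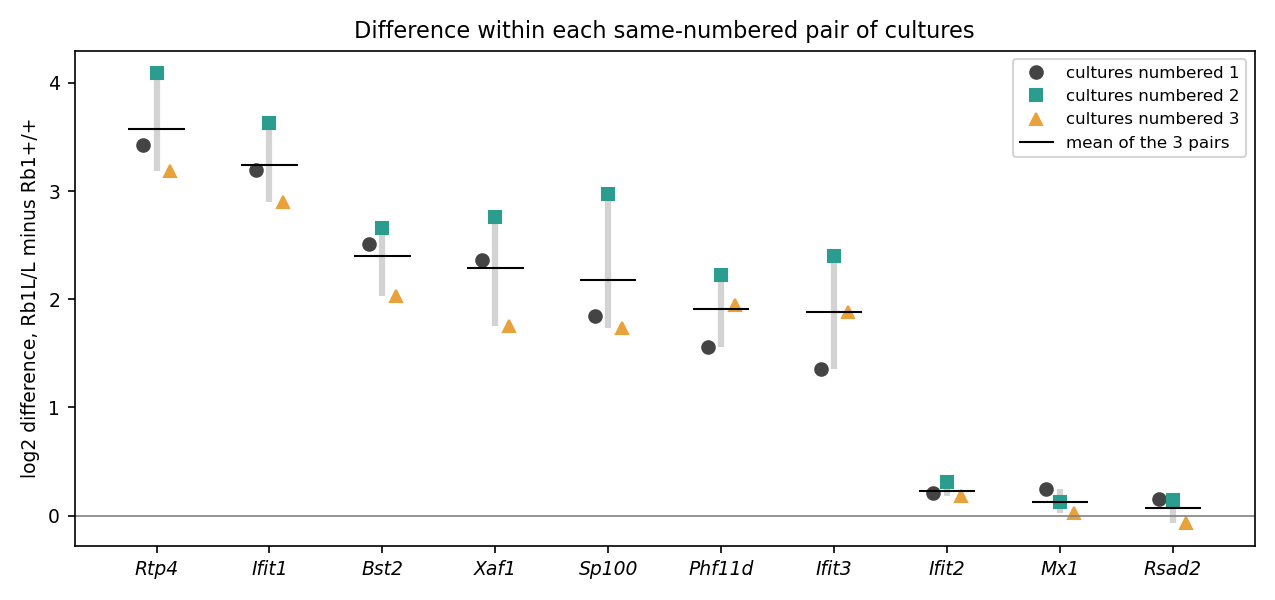
The y axis gives the log2 difference between the Rb1L/L and the Rb1+/+ culture of the same number, for each gene on the x axis; marker shapes give the number, grey bars the range and black lines the mean of the 3 pairs. The cultures numbered 2 gave the largest difference for 8 of the 10 genes, from 4.09 for Rtp4 to 0.31 for Ifit2.

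The genes varied together within a genotype as well. Rb1+/+ replicate 3 was the highest Rb1+/+ culture for 9 of the 10 genes, whereas it was the highest for 35.1% of all tested genes. Rb1L/L replicate 1 was the lowest Rb1L/L culture for 7 of the 10, against 28.5% of all tested genes. The exceptions within Rb1L/L were Ifit2, Mx1 and Rsad2, whose deviations there did not pass 0.12 in size; the exception within Rb1+/+ was Sp100. Rtp4, for example, deviated from its group mean by -0.39, -0.15 and 0.54 in the Rb1+/+ cultures and by -0.53, 0.37 and 0.16 in the Rb1L/L cultures. Rb1+/+ replicate 1 was likewise the lowest Rb1+/+ culture for 6 of the 10 genes, against 33.2% of all tested genes. The cultures numbered 1 were also the only ones of male type, and a part of sex in this pattern was not tested.

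The spread of the genes was wide in comparison with the array as a whole. The median SD of tested genes was 0.08 in Rb1+/+ and 0.07 in Rb1L/L, with 90th percentiles of 0.18 and 0.16. In each genotype 7 of the 10 genes had an SD above that percentile. Rsad2, at 0.03 and 0.11, did not. The cultures numbered 2 gave the largest difference for 8 of the 10 genes and for 31.7% of tested genes. All 10 genes were higher in Rb1L/L in the cultures numbered 1 and 2, and 9 of 10 in those numbered 3, Rsad2 being the exception. Of all tested genes, 46.4%, 45.9% and 45.4% were higher in Rb1L/L in the cultures numbered 1, 2 and 3. The count includes Mx1, which was under the floor, and the genes were chosen with this contrast known, so nothing is read from it.

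Macrophages, which embryo cultures can hold and which express these genes strongly, were followed through 20 markers of macrophages and blood, of which 19 were on the array and 18 above the floor, Aif1 alone being under it. Adgre1 (0.95 ± 0.20 SE, limma adjusted p = 0.0241), Cd14 (0.35, adjusted p = 0.0178) and C1qa (0.34, adjusted p = 0.0385) rose in Rb1L/L and Cx3cr1 fell by 0.34 (adjusted p = 0.0406), while 14 of the 18 did not pass. Over all tested genes 7.10% were called higher and 5.08% lower. None of the 18 was called without Rb1+/+ replicate 1, and 1 was called without Rb1L/L replicate 2. Without Rb1+/+ replicate 2 or Rb1L/L replicate 3, 2 were called. Without Rb1+/+ replicate 3 the count was 4, and without Rb1L/L replicate 1 it was 3. Calls over all tested genes fell in these fits too, from 1883 to between 622 and 1441. The summed linear level of the 19 markers was 2937 to 4725 in Rb1+/+ and 3481 to 5014 in Rb1L/L, so the groups overlapped. Lyz2 alone made up 35.4% to 42.4% of this sum; without it, in a sum formed after this was seen, the ranges were 1848 to 2723 and 2248 to 3025 and still overlapped. The sum weights bright probes and does not show Adgre1, whose groups did not overlap. With all 19 markers it was highest in Rb1+/+ replicate 3 and Rb1L/L replicate 2, and lowest within Rb1L/L in replicate 1. Within Rb1+/+ the sum was lowest in replicate 2 (2937, against 3611 in replicate 1), whereas replicate 1 was the lowest Rb1+/+ culture for 6 of the 10 genes. The part of these cells in the differences of the 10 genes was not tested. In bulk RNA a change in the number of such cells and a change in RNA per cell cannot be told apart.

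The interferon pathway beyond the 10 genes was covered by 88 genes grouped by role, of which 74 were on the array and 60 tested. In these lists 22 genes rose and none fell, a share to be read against the 7.10% and 5.08% above; the median difference was 0.10. Without both arrays numbered 1 the count was 12. At the top of the pathway no interferon gene passed: of 8 tested ligand genes none rose or fell by limma (none at an unadjusted p under 0.05 either), and Ifna16 and Ifna14 both differed by 0.02. Ifnb1, the interferon that fibroblasts are best known to make, had means of 4.44 ± 0.21 and 4.42 ± 0.08 (SD, n = 3 each), under the floor. No call was made among the 6 receptor genes either, also at an unadjusted p under 0.05, with Ifnar1 at -0.05 ± 0.07 and Ifnlr1 at 0.02 ± 0.08 (SE).

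Below the receptors, members of the transcription complex were higher. Stat2 rose by 1.46 ± 0.14 (SE; limma adjusted p = 0.00251) and Irf9 by 1.45 ± 0.17 (adjusted p = 0.0036), and they were 2 of 5 tested signalling genes. The kinase genes Tyk2 (0.00 ± 0.10) and Jak1 (-0.06 ± 0.06) did not pass. Of 6 interferon regulatory factor genes, 3 rose: Irf7, which amplifies the response, by 2.23 ± 0.25 (adjusted p = 0.00326), Irf1 by 0.45 (adjusted p = 0.0255) and Irf3 by 0.22 (adjusted p = 0.0375). Irf3 lost the call in each of the 6 fits without 1 array and with quantile normalization (adjusted p = 0.0688), and Irf1 lost it without Rb1+/+ replicate 1 or any 1 of the Rb1L/L arrays and with the mean of its clusters (adjusted p = 0.0524). Irf5 (0.04) and Irf8 (0.05) did not pass.

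Of the 7 negative regulators, Usp18, which removes ISG15 and restrains the receptor, rose by 3.79 ± 0.31 (SE; limma adjusted p = 0.00146), a larger difference than that of any of the 10 effectors. Ptpn11 (0.02) and Ptpn6 (0.03), both phosphatase genes, did not pass. Of 23 tested effectors outside the 10, 15 rose and none fell, with a median of 0.61. Irgm1, a GTPase of the defence against intracellular microbes, rose by 1.55 ± 0.10 (adjusted p = 0.000722), Ifi35 by 1.63 ± 0.15 (adjusted p = 0.00224), Oasl2 by 3.05 ± 0.28 (adjusted p = 0.00224) and Gbp3 by 1.52 ± 0.15 (adjusted p = 0.00233). Ifitm2 (0.02 ± 0.06), which blocks virus entry, and Samhd1 (0.05 ± 0.07), which degrades nucleotides, did not pass. The list of effectors thus held strongly higher genes beside genes with small differences, as the 10 did.

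**Figure D3:**
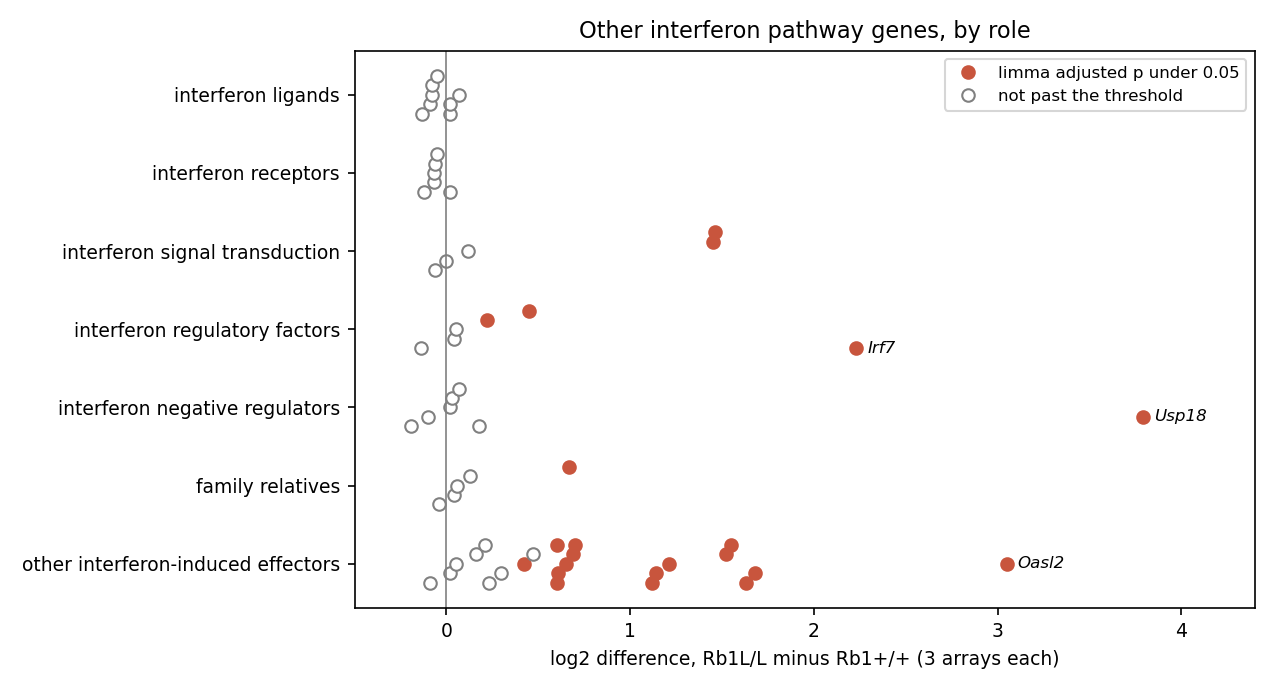
Each circle is a tested gene of the interferon pathway outside the 10, placed by its log2 difference between 3 Rb1L/L and 3 Rb1+/+ arrays (x axis) and by its role (y axis); filled circles passed limma's adjusted p of 0.05. The ligand and receptor genes lie near 0, while Usp18 (3.79), Oasl2 (3.05) and Irf7 (2.23) lie farthest to the right.

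Close relatives and neighbours of the 10 genes were examined by position. In the Ifit cluster on chromosome 19 the named genes run Lipa, Ifit2, Ifit3, Ifit3b, Ifit1bl2, Ifit1 and Slc16a12. Between the high Ifit3 and Ifit1, the array values of Ifit3b (3.78 ± 0.19 in Rb1+/+, 4.47 ± 0.34 in Rb1L/L; SD, n = 3 each) and of Ifit1bl2 (3.81 ± 0.10 and 3.79 ± 0.20) were under the floor. Ifit3b is a near copy of Ifit3, and probes of the pair can pick up both transcripts. Its promoter window held the same 2 ISRE cores as Ifit3, beginning 188 and 154 bases before the start. The flanking genes Lipa (-0.16 ± 0.06 SE) and Slc16a12 (0.06 ± 0.11) did not pass.

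Rsad2 lies between Rnf144a and Cmpk2 on chromosome 12, head to head with Cmpk2, which encodes a mitochondrial nucleotide kinase and is known to be induced together with Rsad2. Cmpk2 measured 5.16, 5.18 and 4.92 in Rb1+/+ and 5.35, 6.14 and 5.78 in Rb1L/L, so the groups did not overlap. Its Rb1+/+ mean of 5.09 lay at the floor, as that of Sp100 did, and Rsad2 lay just above the floor. The 2 genes are thus compared on values near the floor. Cmpk2 rose by 0.67 ± 0.18 (SE, limma adjusted p = 0.0457), beside 0.07 for Rsad2. This call was fragile: it was kept in 1 of the 6 fits without 1 array, the one without Rb1L/L replicate 1, and missed with array weights (adjusted p = 0.0892) and with no filter (adjusted p = 0.0512). On the other side of Rsad2, Rnf144a, a ubiquitin ligase gene, rose by 0.42 ± 0.08 (adjusted p = 0.018), and its call was lost without Rb1+/+ replicate 1, Rb1+/+ replicate 3 or Rb1L/L replicate 1.

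On chromosome 14 Phf11d is flanked by its relatives Phf11a and Phf11c. Phf11a differed by 0.06 ± 0.22 (SE) and did not pass, and its values ran from 4.78 to 5.67 in Rb1+/+ alone. Phf11c, under the floor, had means of 4.65 ± 0.18 and 5.01 ± 0.21 (SD, n = 3 each). Beyond them, Rcbtb1 (0.11 ± 0.06) and Setdb2 (0.18 ± 0.10) did not pass. Of the tested relatives of Rtp4, Rtp1 differed by -0.04 ± 0.10 and did not pass. Among the 5 tested relatives Cmpk2 was the single gene called; Ifit1bl1, Sp110 and Phf11b were not analysed here.

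**Figure D4:**
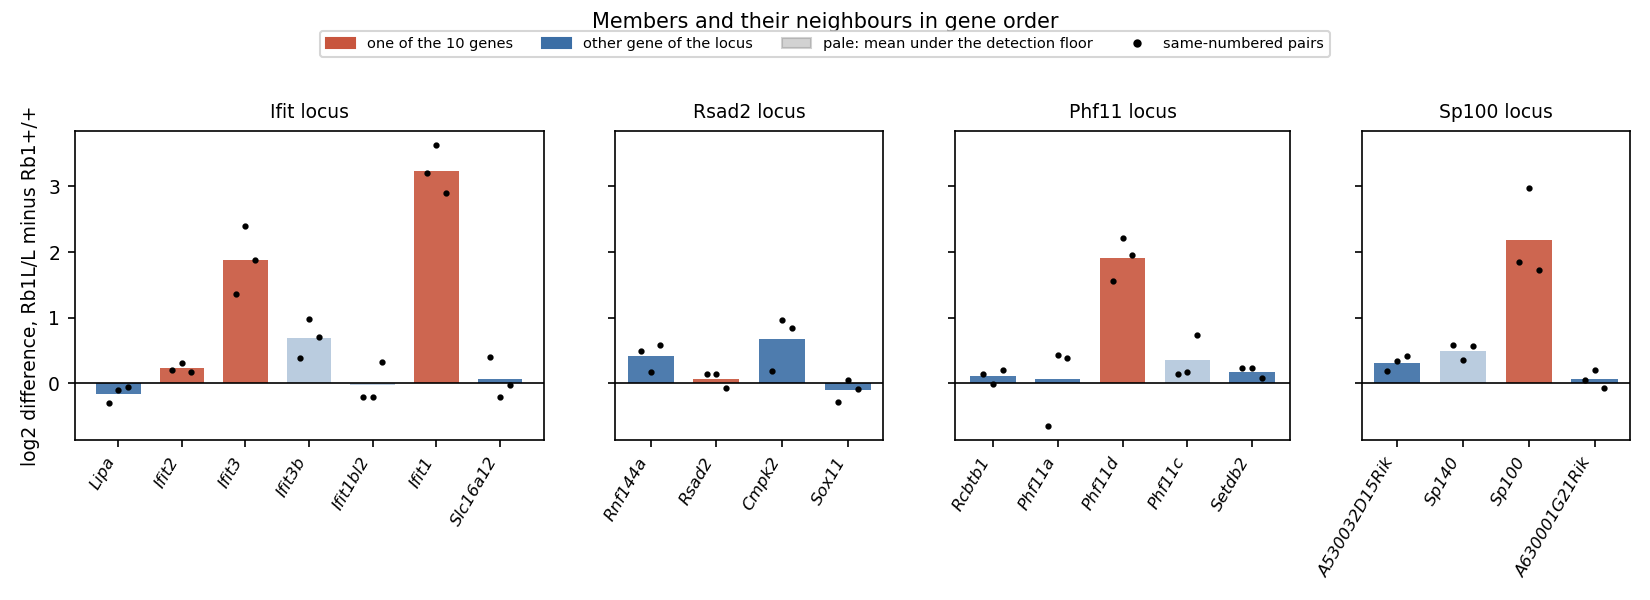
Bars give the log2 difference, Rb1L/L minus Rb1+/+ (y axis), of the genes of 4 loci in their genomic order (x axis), red for the 10 genes and blue for others, pale where the mean was under the floor, with dots for the 3 same-numbered pairs. Ifit1 (3.24) and Ifit3 (1.88) stand beside Ifit2 (0.23), Cmpk2 (0.67) beside Rsad2 (0.07), and Phf11d (1.91) beside Phf11a (0.06). Rsad2, and Cmpk2 in Rb1+/+, lay near the floor.

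The nearest tested genes on each side that belong to no interferon list came to 14, with none for Mx1, which the reference does not list as protein-coding. Because listed and untested genes were skipped, they lay 1 to 8 protein-coding genes away, A530032D15Rik being 8 from Sp100. Of these neighbours 2 rose and none fell, against 7.10% and 5.08% of all genes. Besides Rnf144a this was Mvb12a next to Bst2, which rose by 0.30 ± 0.08 (SE; limma adjusted p = 0.0411); it lost the call in each of the 6 fits without 1 array and with the replicate block (adjusted p = 0.056). With the block A530032D15Rik, on the Sp100 side, rose (adjusted p = 0.0264) and Masp1, next to Rtp4, fell (adjusted p = 0.0191). No neighbour of Xaf1, Ifit1, Ifit2, Ifit3 or Phf11d was called.

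The genes most like the 10 were found by their profile over the 6 arrays. The median profile of the 10, centred on its mean, was -1.24, -1.19 and -0.65 in Rb1+/+ and 0.58, 1.29 and 1.20 in Rb1L/L. The 8 closest of the other tested genes, by root mean square difference, were Ifih1 and Ube2l6 (0.10 each), Samd9l (0.16), Irf7 (0.19), Lgals3bp (0.21), Oas1b (0.25), Ccl5 (0.26) and Parp9 (0.27). Ifih1, the RNA sensor MDA5, had values of 6.11, 6.22 and 6.65 in Rb1+/+ and 7.71, 8.44 and 8.45 in Rb1L/L. Ube2l6, an enzyme of ISG15 conjugation, had 8.07, 8.0 and 8.48 and then 9.69, 10.25 and 10.29. In both, Rb1+/+ replicate 3 was the highest of its group and Rb1L/L replicate 1 the lowest of its own, as for Ifit1 and Rtp4. The median profile has this same order, and both genes were picked for being closest to it. The shared order is thus part of how they were found and not a separate result. The likeness rests on 6 arrays and mostly on the genotype difference.

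Leaving out 1 array lowered the 1883 genes called over the whole array to between 622 (without Rb1L/L replicate 2) and 1441 (without Rb1+/+ replicate 2), so the shares of called genes depend on which arrays are kept.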

How the data were processed

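Total RNA of 6 MEF cultures was measured on 1 Affymetrix array each. The deposited values are log2 values made by the authors with RMA (background correction, normalization across arrays and summary per transcript cluster), and Partek is also named, per the submitters' processing notes; no version, setting or genome build was given in the sources used here. Such values can compress the differences of dim genes.

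Clusters with 1 gene symbol (21789 of 35556) were used, symbols were updated by gene ID for 21698 of them, and the brightest cluster was taken for the 999 genes with several. Genes with a mean above log2 5.081 (90th percentile of the odorant and pheromone receptors) were tested with limma 3.58.1 in R 4.3.3 (lmFit, eBayes, no block; Benjamini-Hochberg). Nothing says the cultures came from separate embryos, so p-values measure the spread between these samples. The members and lists were chosen with earlier results of these data known. Named genes are all members, the up to 4 called genes of smallest p and the 2 of largest p in each list, called markers and neighbours, and the 8 nearest profiles. The series text states no block, so the main fit used none. Pairing by number was read from the correlated deviations only, and the fit with the block was run as an alternative. On simulated data for Rb1L/L against Rb1+/+ with 15462 genes, 81% of 100 genes planted at 1.5-fold and 98% of 100 planted at 2-fold were recovered, with 11 false calls. The simulated noise was independent between genes and arrays. It therefore lacks the shared deviations of same-numbered cultures, and these rates need not hold for the real arrays. Alternatives changed the block, normalization, filter, moderation, weights, clusters and arrays. Arrays have no read depth.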

Additional observations from a re-analysis of the deposited data

How the results depend on the processing

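The differences of the 10 genes kept their sign under each of the 17 alternatives run, and no value moved by more than the spread between cultures. The replicate block, both filters, trended variances and the mean of clusters cannot change these differences of means. Only the normalizations, array weights and left-out arrays can change them. Where the groups did not overlap, leaving out or weighting arrays cannot reverse the sign. Leaving out 1 of 3 arrays also cannot move a group mean by as much as the SD of that group. The kept signs and small shifts in those fits are therefore not read as support. Ifit1 ranged from 2.90 to 3.61, Rtp4 from 3.31 to 3.84, Ifit2 from 0.15 to 0.31 and Rsad2 from 0.03 to 0.14. The median over the 10 ranged from 1.77 to 2.32 when arrays were left out. With the replicate block, which follows the pairing by number, 8 of the 10 genes, 22 pathway genes, 3 neighbours, 4 macrophage and blood markers and 2232 genes in all were called. Leaving out 1 array or both arrays of a number gave 6 to 7 called genes of the 10 (Sp100 was lost without number 1 and without number 3, Ifit3 without number 2), 12 to 19 pathway genes, 0 to 1 neighbours, 0 to 4 markers and 92 to 1441 genes in all: 822 and 911 without Rb1+/+ replicates 1 and 3, and 628, 622 and 1187 without Rb1L/L replicates 1, 2 and 3. Median centring, quantile normalization, both filters, trended variances, array weights and the mean of clusters kept each of these counts within 1.5 times. Signal over background limits Mx1, for which no level can be read, and Rsad2, which lay near the floor.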

Other observations

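Of the 74 pathway genes on the array, 14 had a mean under the detection floor. With no filter, which called 955 of 19938 genes higher, limma called 4 of these 14 and did not call 10. Those called included Mx2, the GTPase relative of Mx1 (means 3.83 ± 0.04 in Rb1+/+ and 4.73 ± 0.25 in Rb1L/L, SD, n = 3 each; adjusted p = 0.0044), and Ifit3b (3.78 ± 0.19 and 4.47 ± 0.34; adjusted p = 0.0378). They also included Sp140, a relative of Sp100 (4.74 ± 0.07 and 5.25 ± 0.08; adjusted p = 0.00544), and Ddx60, a helicase gene of the effector list (4.48 ± 0.04 and 5.46 ± 0.47 by group; adjusted p = 0.0213). Among the 10 not called were Ifit1bl2 (adjusted p = 0.924) and Phf11c (adjusted p = 0.114). Mx1 itself was not called in that fit (adjusted p = 0.242).

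The cluster that Sp100 shares with 4 other symbols measured 6.53, 6.23 and 5.98 in Rb1+/+ and 6.96, 8.32 and 6.75 in Rb1L/L, a difference of 1.10. As in the cluster of Sp100 alone, Rb1L/L replicate 2 was the highest culture.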
